A study of Homo sapiens with 6 samples.

Results

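The axon guidance ligand and receptor families were the semaphorins of classes 3 to 7, the plexins and neuropilins, the ephrins and EPH receptors, the SLIT and ROBO genes, the netrins and the UNC5 receptors. Members were taken by gene symbol, and 68 of the 35268 named genes of the expression table belonged to these 12 families, with 35 ligands and 33 receptors. Messenger RNA was sequenced from Rh30, an established patient-derived cell line of fusion-positive rhabdomyosarcoma (FP-RMS), a childhood muscle-lineage tumour driven by the PAX3-FOXO1 fusion protein. One group of 3 libraries came from cells given 1 µM YK-4-279 for 24 hours, and the other 3 libraries came from cells given only its solvent, DMSO. YK-4-279 is a small molecule that interferes with protein interactions of ETS transcription factors, and the comparison asked what it does to gene expression in an FP-RMS line. All results describe 1 line at 1 dose and 1 time, and the sources describe triplicate samples without saying whether these were separate cultures, so each p-value measures the spread between these libraries, which may be technical.

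Guidance cues were first studied as signals that steer growing axons, but most of these genes are also used outside the nervous system, in vessels, muscle, bone and tumours. Semaphorins act through plexins, with neuropilins as co-receptors for most secreted class 3 members. Ephrins on one cell bind EPH receptor tyrosine kinases on the next, SLIT proteins bind ROBO receptors, and netrins bind DCC, which attracts axons, and UNC5 receptors, which mediate repulsion. Downstream, most of these receptors act on the actin cytoskeleton.

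The 6 libraries held from 16724650 to 24677433 reads on named genes. DMSO replicate 1 was the shallowest, had the largest mitochondrial share of reads (6.05% against 4.74% to 5.03%) and stood apart from the other 5. Its part in the results was not tested beyond the fits that left it out, and values without it are given beside each member whose call it changed. Rh30 expressed the muscle program that its label implies, with 9 of 10 rhabdomyosarcoma and myogenic markers at a mean of at least 10 normalized counts and a summed level of 92349 to 107174 in DMSO and 98660 to 103570 in YK-4-279. Of 10 neuronal markers, 6 were below that level, namely STMN2, SNAP25, GAP43, NEFL, NEFM and ELAVL4, of which 4 were at 0 in all libraries. The summed neuronal level was 230 to 253 in DMSO and 261 to 280 in YK-4-279, and SYT1 made up most of it. Summed fibroblast markers were also higher with YK-4-279 (3071 to 3253 against 2696 to 2861 in DMSO), with COL1A1 called at a log2 fold change of 0.34 (limma adjusted p = 0.0375), as were summed leukocyte markers, at 16.0 to 24.0 against 3.78 to 14.0. Of the other fibroblast markers tested, PDGFRA was at 0.27, LUM at 0.23, COL3A1 at 0.14 and THY1 at -0.24, without a call. Summed epithelial markers were 140 to 148 in DMSO and 148 to 194 in YK-4-279. The endothelial sum was 334 to 439 in DMSO and 323 to 338 in YK-4-279, and its markers went both ways without a call. TEK was at -0.38 (limma adjusted p = 0.128), EGFL7 at -0.23 and TIE1 at -0.18. CDH5 was at 0.38, PECAM1 at 0.13 and CLDN5 at 0.11. The part of these marker differences in the results was not tested. In bulk RNA from a cell line, a change in the share of cells with a transcript and a change of RNA per cell cannot be told apart.

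Rh30 cells expressed every one of the 12 families. Levels are compared between genes as normalized counts per kilobase of the canonical transcript, a scale that corrects for length but assumes that this transcript is the one in use. NTN5, a member of the netrin family, had the highest level of all members, at 3557 ± 238 per kilobase in DMSO (SD, n = 3). SEMA6B, a membrane-anchored semaphorin, followed at 2111 ± 350, and PLXNB2, a receptor for class 4 semaphorins, at 1559 ± 110. The next in order, the ephrin receptor EPHA2 at 805 ± 77.6, the semaphorin receptor PLXNA1 at 796 ± 38.0 and PLXND1 at 761 ± 19.6, lay within the spread of EPHA2. In all, 24 of the 56 members tested had at least 100 normalized counts per kilobase in DMSO. At the other end were SEMA4D, at 3.16 ± 0.871 per kilobase, and 12 members with a mean of at most 9.40 normalized counts, which were too low for the test. These 12 were SEMA3G, SEMA5A, SEMA5B, EPHA1, EPHA6, EPHA10, EPHB6, SLIT1, ROBO4, UNC5A, UNC5C and UNC5D. EPHA10 and UNC5D were at 0 in all 6 libraries.

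**Figure D1:**
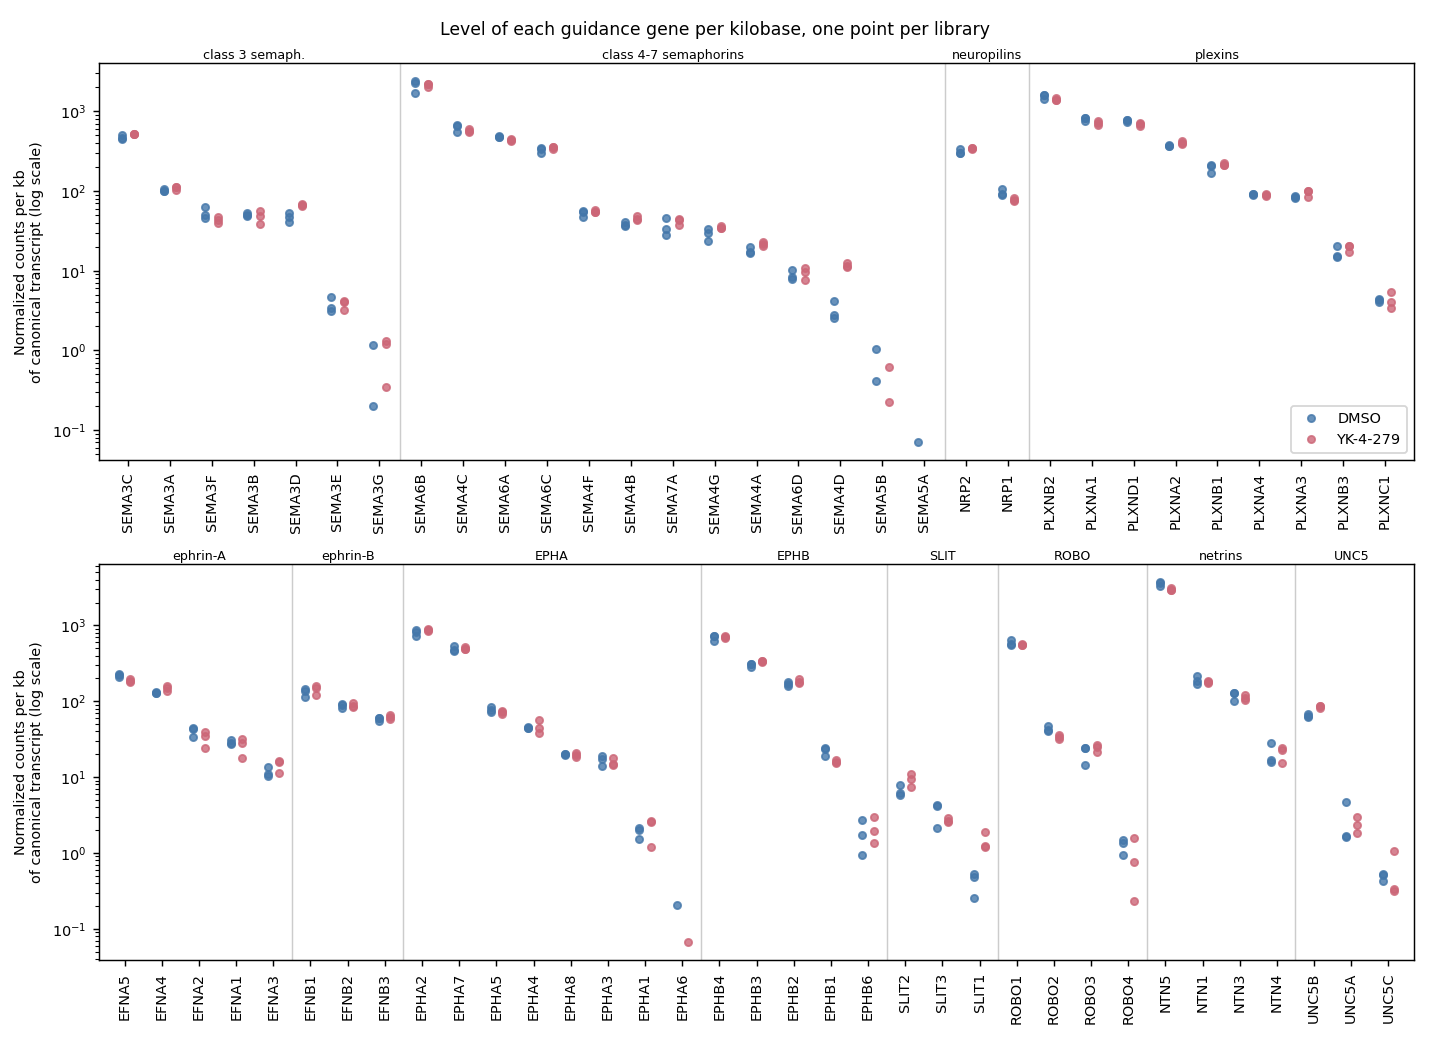
Level of each member in normalized counts per kilobase of canonical transcript (log scale), with 1 point for each of the 3 DMSO and 3 YK-4-279 libraries and members grouped by family. EPHA10 and UNC5D, at 0 in all libraries, are left out. A value of 0 has no point. NTN5, SEMA6B and PLXNB2 stand highest, and for most genes the points of both groups lie on top of each other.

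The share of the leading gene differed between families. UNC5B made up 95.4% of the summed level per kilobase of the 4 UNC5 receptors in DMSO, NTN5 91.6% of that of the netrins, ROBO1 89.96% of that of the ROBO receptors and NRP2 76.7% of that of the neuropilins. SEMA3C held 64.7% of the class 3 semaphorins, SLIT2 62.5% of the SLIT ligands and SEMA6B 56.7% of the other semaphorins. In the ephrin system EPHB4 held 58.4% of the EPHB receptors, EPHA2 55.2% of the EPHA receptors, EFNA5 51.2% of the A-class ligands and EFNB1 47.5% of the B-class ligands. PLXNB2, at 40.2% of the plexins, had the smallest share of any leading gene in the 12 families. SLIT ligands were scarce beside their receptors, since SLIT2 had 6.58 ± 1.08 normalized counts per kilobase in DMSO against 585 ± 46.4 for ROBO1 (SD, n = 3).

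After YK-4-279, 3 members rose and 1 fell. SEMA4D, a membrane semaphorin that binds plexin-B receptors, SEMA3D, a secreted semaphorin, and UNC5B, a netrin receptor, rose, and NTN5 fell. These 4 of 56 tested members (7.14%) passed an adjusted p of 0.05, against 3.41% of all 13930 genes tested, or 475 genes, with 176 higher (1.26%) and 299 lower (2.15%). With quantile normalization this split over all genes was 132 higher and 145 lower, and with a trend on GC content and length removed it was 497 and 1453. Higher calls were the majority with eBayes without trend, at 30 against 3, and without YK replicate 1, 2 or 3, at 15 against 4, 16 against 7 and 28 against 18. The test was limma on log2(normalized count + 1), with p-values adjusted over all genes tested by the Benjamini-Hochberg method. Fold changes on this scale understate the change of low genes. Whether the share among the members differs from that among all genes was not tested.

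SEMA4D had 12.6, 19.0 and 11.7 normalized counts in the 3 DMSO libraries and 52.3, 56.5 and 51.0 in the 3 YK-4-279 libraries. Every YK-4-279 library was above every DMSO library, by a margin wider than the range within either group. The mean went from 14.4 ± 3.97 to 53.3 ± 2.87 (SD, n = 3), a ratio of 3.69, and the log2 fold change was 1.84 (SE 0.26, 95% confidence interval 1.29 to 2.39, limma adjusted p = 0.0033). Few reads stand behind this gene, with 10, 19 and 14 in DMSO and 61, 52 and 51 in YK-4-279 as recovered from the smallest value of each library. With YK-4-279 it had 11.7 ± 0.63 normalized counts per kilobase and moved from rank 56 to rank 51 among the 56 tested members, so it stayed a low gene. The gene lies on chromosome 9, minus strand, at chr9:89360787-89498130 (hg38, ENSG00000187764.12).

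SEMA3D gave 323, 362 and 280 normalized counts in DMSO and 461, 457 and 433 in YK-4-279. The groups did not overlap, although DMSO varied more, at 321 ± 41.0 against 451 ± 15.1 (SD, n = 3). Its log2 fold change was 0.49 (SE 0.10, limma adjusted p = 0.0203). SEMA3D is at chr7:84995553-85187056, minus strand (hg38, ENSG00000153993.14).

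UNC5B had 427, 440 and 470.1 normalized counts in DMSO and 601, 591 and 551 in YK-4-279. Again all 3 treated libraries were above all 3 controls. The rise from 446 ± 22.0 to 581 ± 26.2 (SD, n = 3) was a log2 fold change of 0.38 (SE 0.08, limma adjusted p = 0.0232). UNC5B lies at chr10:71212570-71302864, plus strand (hg38, ENSG00000107731.12). Its antisense neighbour UNC5B-AS1 had a value above 0 in YK replicate 1 only, at 4.28.

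NTN5 was at 6113, 6991 and 6596 normalized counts in DMSO and at 5721, 5391 and 5396 in YK-4-279. The treated libraries were all lower, and DMSO replicate 1 was the control nearest to them. The mean went from 6567 ± 440 to 5503 ± 189 (SD, n = 3), with a log2 fold change of -0.25 (SE 0.06, 95% confidence interval -0.39 to -0.12, limma adjusted p = 0.0405). NTN5 is at chr19:48661407-48673081, minus strand (hg38, ENSG00000142233.14), and overlaps SEC1P on the opposite strand. The library kit marked strand, but the strand setting of the authors' counting is not given in the sources used here. SEC1P had 835, 1032 and 1060.4 normalized counts in DMSO and 942, 841 and 845 in YK-4-279, with a log2 fold change of -0.15 (limma adjusted p = 0.414). Whether reads of one were counted for the other was not tested.

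**Figure D2:**
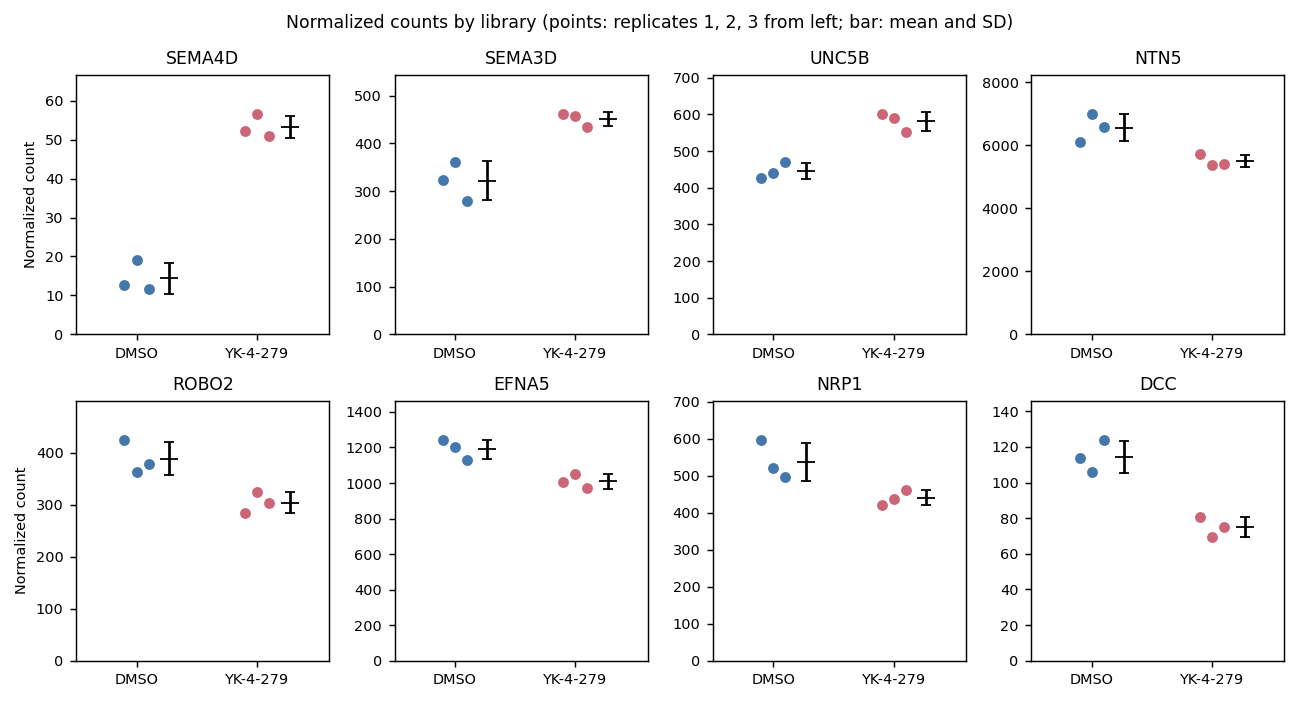
Normalized counts of 7 members and of DCC in each library, on axes that start at 0. Points are replicates 1, 2 and 3 from left to right, and bars give the mean and SD of the 3 libraries. SEMA4D, SEMA3D and UNC5B are higher in all 3 YK-4-279 libraries, and NTN5, ROBO2, EFNA5, NRP1 and DCC are lower in all 3.

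The sign of the 4 genes did not change in any alternative in which they were tested, but the calls depended on single libraries and on the settings of the fit. Without YK replicate 1 or without YK replicate 2, no member passed (0 by limma, with 12 and 10 at an unadjusted p under 0.05), and SEMA4D then had an adjusted p of 0.0555 and 0.0531. SEMA4D alone passed without YK replicate 3, and SEMA4D and UNC5B passed without DMSO replicate 3. NTN5 passed in only 1 of the 6 fits that left out a library, that without DMSO replicate 1, and had an adjusted p of 0.0502 without a filter on the mean, 0.0622 after TMM scaling and 0.135 after quantile normalization. With eBayes without trend, where 33 genes passed in all, SEMA4D kept its call (limma adjusted p = 0.0295), and SEMA3D (0.120), UNC5B (0.102) and NTN5 (0.191) lost theirs. Across the 6 fits that each left out 1 library, the log2 fold change of SEMA4D ranged from 1.72 to 2.04, that of SEMA3D from 0.40 to 0.58, that of UNC5B from 0.35 to 0.42 and that of NTN5 from -0.30 to -0.21.

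**Figure D3:**
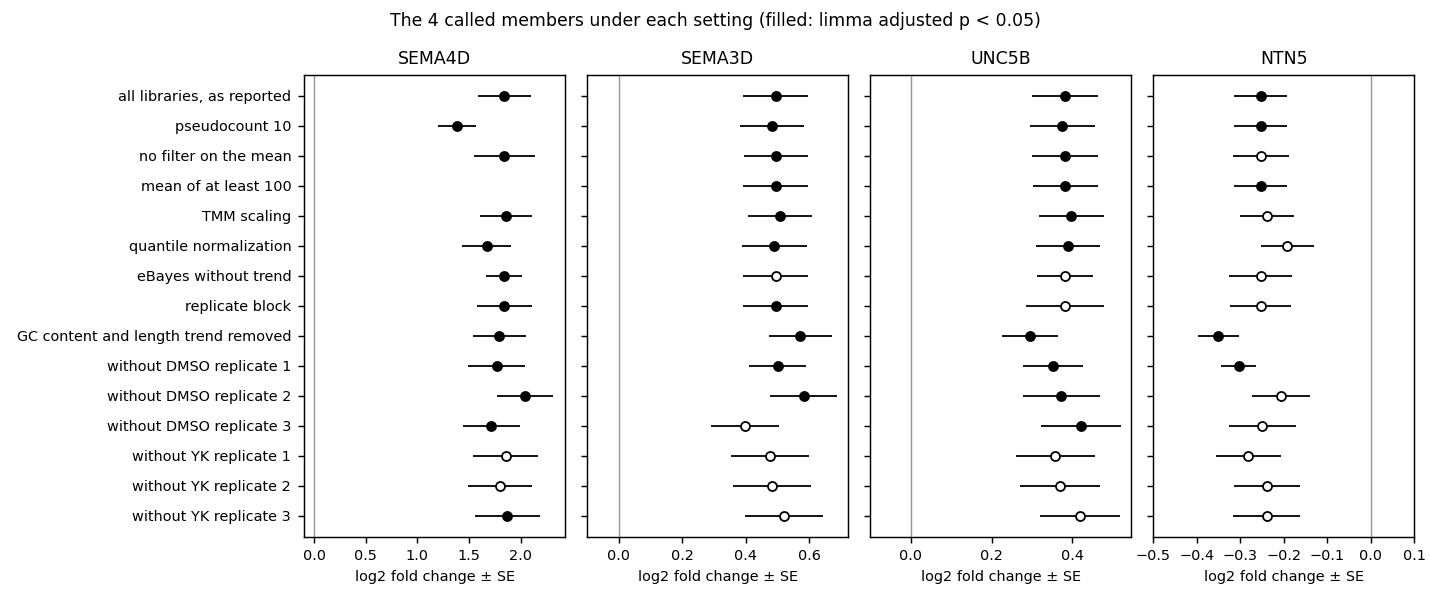
Log2 fold change (YK-4-279 against DMSO) with its SE for the 4 called members under each setting, 1 panel a gene with its own x axis. Filled points passed an adjusted p of 0.05. Points stay on the same side of 0 for each gene, but many open points show calls that were lost, among them those without YK replicate 1 or 2 for all 4 genes.

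Promoters are shown for the called members because ETS factors, whose protein interactions YK-4-279 can inhibit, bind a GGAA core. The sequences are the 250 bases before the first start that RefSeq lists for each gene, on GRCh38.p14, written 5′ to 3′ on the strand of the gene, with every GGAA or its reverse complement TTCC in capitals. They are SEMA4D at chr9:89495657-89495906, SEMA3D at chr7:85187057-85187306 and NTN5 at chr19:48673018-48673267, all on the minus strand. These RefSeq starts differ from the ends of the GENCODE genes given above for SEMA4D, whose window lies inside that gene, and for NTN5, whose window overlaps its 5′ end. UNC5B had no entry in the set of promoters used here.
SEMA4D: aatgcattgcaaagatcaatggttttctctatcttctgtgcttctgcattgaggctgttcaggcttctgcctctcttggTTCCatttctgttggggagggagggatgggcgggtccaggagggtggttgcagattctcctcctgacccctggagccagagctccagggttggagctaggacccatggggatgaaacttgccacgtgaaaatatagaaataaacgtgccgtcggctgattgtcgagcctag
SEMA3D: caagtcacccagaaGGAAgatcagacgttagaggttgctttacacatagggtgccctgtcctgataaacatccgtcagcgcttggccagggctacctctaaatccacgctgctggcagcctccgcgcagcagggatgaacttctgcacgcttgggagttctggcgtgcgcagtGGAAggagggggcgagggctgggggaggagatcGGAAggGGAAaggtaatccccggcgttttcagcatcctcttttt
NTN5: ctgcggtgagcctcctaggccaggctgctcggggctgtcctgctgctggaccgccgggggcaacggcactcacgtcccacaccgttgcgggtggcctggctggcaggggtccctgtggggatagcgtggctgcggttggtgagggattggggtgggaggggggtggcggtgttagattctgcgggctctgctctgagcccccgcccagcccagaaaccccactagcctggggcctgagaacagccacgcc
SEMA3D held 4 GGAA matches on this window, SEMA4D held 1 and NTN5 none. The longer form CCGGAA (or TTCCGG), which contains the core, was in none of the 3. Of 35114 promoters of the same length, 92.7% held a GGAA core on either strand and 14.5% a CCGGAA. Among the 77 listed promoters of the 48 tested members that had one, these shares were 81.8% and 6.49%. A core this short is present almost everywhere, so its presence does not set the called genes apart, and a match is only letters in a window.

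Beyond the 4 calls, the families showed small differences of both signs. The counts that follow include the 4 called members. Of the 56 tested members 33 had a log2 fold change above 0 and 23 below 0, with a median of 0.04 against -0.01 over all genes tested. The median size of the change regardless of sign was 0.14, against 0.11 over all genes. An unadjusted p under 0.05 was reached by 17 members (30.4%) against 18.7% of all genes. The groups did not overlap for 18 members (32.1%) against 26.0% of all genes, with YK-4-279 above DMSO for 11 (19.6% against 10.9%) and below it for 7 (12.5% against 15.1%). Ligands counted 20 higher and 11 lower of 31 tested, with a median of 0.08, and receptors 13 and 12 of 25, with a median of 0.01.

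**Figure D4:**
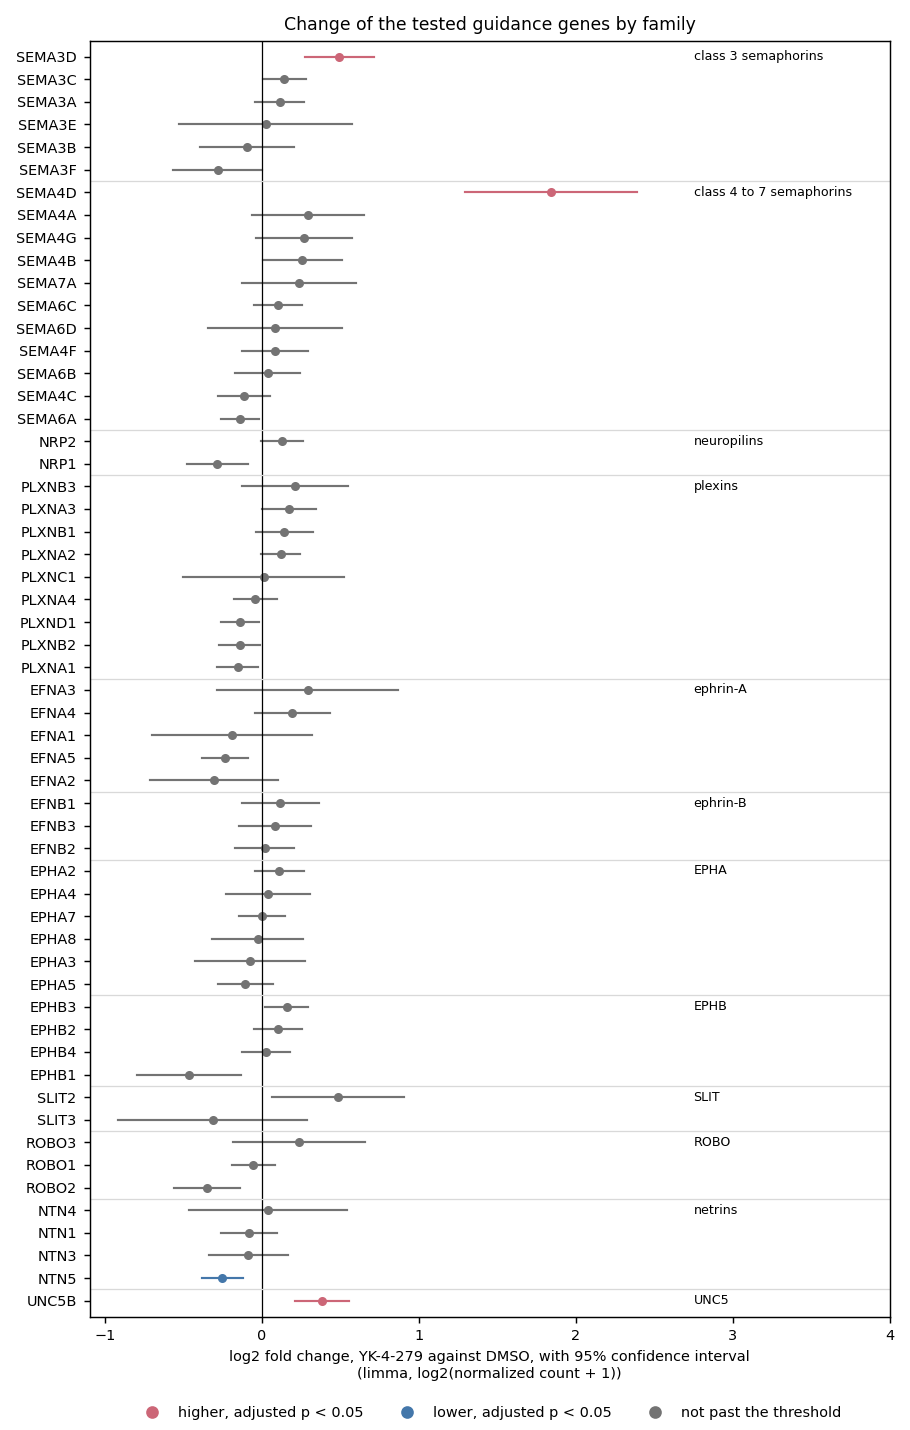
Log2 fold change of the 56 tested members with its 95% confidence interval from limma, ordered within family. Colour marks the 3 members called higher and the 1 called lower. Apart from SEMA4D at 1.84, all members lie between -0.47 and 0.49.

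Among the secreted class 3 semaphorins, which act mostly through neuropilins and plexin-A or plexin-D receptors, 4 of 6 tested members had a positive log2 fold change and 1 passed, SEMA3D, with a family median of 0.07. SEMA3C, the most abundant, had 2463, 2246 and 2164 normalized counts in DMSO and 2502, 2558 and 2514 in YK-4-279. The groups did not overlap, but the log2 fold change of 0.14 (SE 0.06) did not pass (limma adjusted p = 0.25). The largest negative value of the family was that of SEMA3F, at -0.28 (limma adjusted p = 0.271). Without DMSO replicate 1 both passed, SEMA3C at 0.20 (limma adjusted p = 0.0013) and SEMA3F at -0.37 (0.0415). With the GC and length trend removed both passed as well, SEMA3C at 0.23 (0.0018) and SEMA3F at -0.37 (0.0426). SEMA3A also passed in that fit, at 0.18 (0.0457), and was at 0.11 with all libraries (0.426). SEMA3F was at -0.16 without DMSO replicate 2 (0.524).

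Of the membrane-bound semaphorins of classes 4 to 7, 9 of 11 tested had a positive log2 fold change, with a median of 0.10 and SEMA4D as the only call. SEMA4B had 137, 140 and 156 normalized counts in DMSO and 183, 171 and 164 in YK-4-279, and SEMA4G had 106, 152 and 135 in DMSO and 156, 152 and 161 in YK-4-279. Both were above DMSO in every treated library without passing, with a log2 fold change of 0.26 for SEMA4B (limma adjusted p = 0.263) and of 0.27 for SEMA4G (0.331). SEMA4G was at 0.12 without DMSO replicate 1 (0.609), and its highest control and lowest treated library were almost level. SEMA6A, a transmembrane semaphorin, went the other way, with 3301, 3235 and 3236 against 3039, 2879 and 2946 and a log2 fold change of -0.14 (limma adjusted p = 0.195). Without DMSO replicate 1 it passed, at -0.13 (0.0323), as did SEMA4C, at -0.21 (0.0011). With the GC and length trend removed both passed, SEMA6A at -0.16 (0.0085) and SEMA4C at -0.20 (0.0040). With all libraries SEMA4C was at -0.12 (0.444), and without DMSO replicate 3 at -0.06 (0.761). SEMA6B, the most abundant of them, had 6612, 9149 and 8692 in DMSO and 8595, 8417 and 7809 in YK-4-279. Its groups overlapped only through DMSO replicate 1, and the log2 fold change of 0.03 (limma adjusted p = 0.884) became -0.11 without that library (0.0740).

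None of the 2 neuropilins and 9 plexins, the semaphorin receptors, passed as tested here (0 by limma, with 1 and 4 at an unadjusted p under 0.05). NRP2, PLXNA1, PLXNB2 and PLXND1 passed without DMSO replicate 1, and NRP1, PLXNA1, PLXNB2 and PLXND1 with the GC and length trend removed. The neuropilins differed in sign. NRP1, a co-receptor for class 3 semaphorins and VEGF, had 595, 521 and 496 normalized counts in DMSO and 421, 438 and 461 in YK-4-279. All 3 treated libraries were lower, at a log2 fold change of -0.28 (SE 0.09, limma adjusted p = 0.104), which passed with the GC and length trend removed (0.0182). NRP2, its paralog, had 2217, 2019 and 2018 in DMSO and 2299.9, 2288 and 2244 in YK-4-279, all higher, at 0.13 (limma adjusted p = 0.282), and passed without DMSO replicate 1, at 0.17 (0.0052).

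Among the plexins, the log2 fold changes ran from -0.15 to 0.21 with a median of 0.01. PLXND1, a receptor for SEMA3E, had 5107, 5319 and 5359.5 normalized counts in DMSO and 5003, 4783 and 4536 in YK-4-279, at -0.14 (limma adjusted p = 0.210), at -0.16 without DMSO replicate 1 (0.0049) and at -0.23 with the GC and length trend removed (0.0047). PLXNA2 had 4168.5, 4409.7 and 4227 in DMSO and 4828, 4645 and 4427 in YK-4-279, at 0.12 (limma adjusted p = 0.291). Neither pair of groups overlapped. PLXNA1 went from -0.15 (limma adjusted p = 0.193) to -0.20 without DMSO replicate 1 (6.1e-04) and to -0.26 with the GC and length trend removed (6.0e-04). The plexin-B receptors, to which SEMA4D binds, gave -0.14 for PLXNB2 (limma adjusted p = 0.234), 0.14 for PLXNB1 (0.391) and 0.21 for PLXNB3 (0.503). Of these PLXNB2 passed without DMSO replicate 1, at -0.20 (limma adjusted p = 1.8e-04), and with the GC and length trend removed, at -0.23 (7.0e-04). Without DMSO replicate 1 PLXNB1 was at 0.04 (0.717) and PLXNB3 at 0.12 (0.679).

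In the ephrin system no ligand and no receptor passed the test, with 8 ephrins and 10 EPH receptors tested (0 by limma, with 1 ephrin and 2 receptors at an unadjusted p under 0.05). EFNA5, a membrane-anchored ligand and the main A-class ephrin of these cells, had 1239, 1200.1 and 1132 normalized counts in DMSO and 1006, 1053 and 971 in YK-4-279. All treated libraries were lower, and the log2 fold change of -0.24 (SE 0.07) came close to the threshold (limma adjusted p = 0.0788). It passed without DMSO replicate 1, at -0.21 (0.0077), and with the GC and length trend removed, at -0.21 (0.0136). EFNA4 was above DMSO in all 3, with 160.1, 168 and 163 against 189, 173 and 200.1 and a log2 fold change of 0.19 (limma adjusted p = 0.380). EFNA2 had the largest negative value of its class, at -0.31 (limma adjusted p = 0.415), with groups that overlapped. It ranged from -0.45 without YK replicate 2 to -0.11 without YK replicate 1, where EFNA5 (-0.23) was more negative. The 3 B-class ephrins had values from 0.02 to 0.12, with EFNB1 at 0.12 (limma adjusted p = 0.624). EFNB1 ranged from 0.02 without DMSO replicate 1 to 0.23 without YK replicate 3.

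The 6 tested EPHA receptors lay between -0.11 and 0.11, and in none of them were the groups apart. EPHA2 had 2855, 3464 and 3207 normalized counts in DMSO and 3589, 3387 and 3285 in YK-4-279, at 0.11 (95% confidence interval -0.05 to 0.27, limma adjusted p = 0.437), and at 0.04 without DMSO replicate 1. EPHA7 was the flattest, with a 95% confidence interval from -0.14 to 0.14. Of the EPHB receptors, which bind mainly B-class ephrins, EPHB3 had 1203, 1306 and 1293 in DMSO and 1423, 1416 and 1399.7 in YK-4-279, without overlap, at 0.16 (limma adjusted p = 0.208). EPHB1, a low gene, had 112, 111 and 88.5 in DMSO and 72.8, 71.7 and 79.0 in YK-4-279. It had the most negative log2 fold change of all members, -0.47 (SE 0.15), and did not pass (limma adjusted p = 0.116), except with the GC and length trend removed (0.0370). EPHB4, the most abundant, was at 0.02 (limma adjusted p = 0.896).

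The SLIT and ROBO genes had no call (0 of 5 by limma, with 2 at an unadjusted p under 0.05). ROBO2, a SLIT receptor, had 424, 363 and 378 normalized counts in DMSO and 284, 325 and 304 in YK-4-279. All treated libraries were below all controls, at a log2 fold change of -0.35 (SE 0.10, limma adjusted p = 0.0666), the smallest adjusted p among members that did not pass. It passed without DMSO replicate 1, at -0.29 (0.0295), and without DMSO replicate 2, at -0.40 (0.0489). With the GC and length trend removed ROBO2 also passed, at -0.33 (0.0110). ROBO1, its far more abundant paralog, was at -0.06 (limma adjusted p = 0.674). The ligand SLIT2 had 49.2, 63.0 and 46.8 in DMSO and 75.4, 89.1 and 60.03 in YK-4-279, at 0.49 (SE 0.20, limma adjusted p = 0.206), with 1 treated library below the highest control.

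SLIT1, singled out after its values were seen, was below the level needed for the test. It had 3.78, 1.998 and 4.17 normalized counts in DMSO and 9.43, 9.78 and 15.01 in YK-4-279, from a total of 10 and 35 reads. The groups did not overlap, and when genes of any level were fitted its log2 fold change was 1.53 (SE 0.47, limma adjusted p = 0.108). A readthrough gene that shares its sequence, ARHGAP19-SLIT1, was at most 5.01 in any library. How the authors' counting treated reads that fit both genes is not given in the sources used here.

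In the netrin system NTN5 fell and UNC5B rose as above, while NTN1, the classical netrin, had 1012, 1273 and 1101 normalized counts in DMSO and 1094, 1064 and 1027 in YK-4-279, at -0.08 (limma adjusted p = 0.633). It passed with the GC and length trend removed, at -0.17 (0.0462), was at -0.16 without DMSO replicate 1 (0.0618), and was at 0.0071 without DMSO replicate 2 (0.971), so its sign rested on that library. The other UNC5 genes were too low to test. DCC, the other main netrin receptor and not a member of these families, had 113, 106 and 124 normalized counts in DMSO and 80.5, 69.5 and 75.04 in YK-4-279. It fell in all 3 treated libraries, at a log2 fold change of -0.60 (SE 0.14, limma adjusted p = 0.0382). NEO1, a DCC relative that also binds netrins, was at -0.12 (limma adjusted p = 0.398).

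DCC belonged to a wider list of 74 co-receptors, effectors and regulators of the same pathways. Of the 64 tested, 27 had a log2 fold change above 0 and 37 below 0, with a median of -0.04, and 2 passed, both lower (3.12%, against 3.41% of all genes). The other was DOCK1, an activator of the GTPase RAC1 that acts downstream of netrin receptors, with 2624, 2461 and 2485 normalized counts in DMSO and 2113, 2189.6 and 2036 in YK-4-279. Its groups were well apart, at -0.26 (SE 0.06, limma adjusted p = 0.0360). DCC and DOCK1 each passed in only 2 of the 6 fits that left out 1 library, those without DMSO replicate 1 or 2. Both also lost their calls with eBayes without trend (limma adjusted p = 0.0813 for DCC and 0.148 for DOCK1), DCC without a filter on the mean (0.0728) and DOCK1 with quantile normalization (0.0790). ENAH, an actin regulator and the gene with the highest mean count of the list, had 9935, 9282 and 9312 in DMSO and 10341, 10553 and 10457 in YK-4-279, at 0.14 (limma adjusted p = 0.190). It passed in 1 of the 6 fits that left out 1 library (limma adjusted p = 0.0015). Its value ranged from 0.12 without DMSO replicate 2 to 0.17 without DMSO replicate 1. The groups did not overlap for 20 of these genes (31.2%, against 26.0% of all genes), 5 with YK-4-279 above (7.81% against 10.9%) and 15 below (23.4% against 15.1%).

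DMSO replicate 1 differed from the other DMSO libraries in step with the GC content of transcripts. Among the 24 tested members with at least 60% GC it was the lowest DMSO library for 22 (91.7%, against 82.2% of all such genes tested), and among the 13 members below 45% GC it was the highest for 8 (61.5%, against 77.8%). NTN5 (67.0% GC) and UNC5B (60.2%) were in the first group, with DMSO replicate 1 the lowest of the 3 for each, and SEMA3D (36.9%) in the second, where DMSO replicate 2 and not replicate 1 was its highest control. Without this library 14 members passed in place of 4, against 13.1% of all genes. They were 5 higher and 9 lower, and those added to the 4 were EFNA5, ROBO2, NRP2, SEMA3C, SEMA3F, SEMA4C, SEMA6A, PLXNA1, PLXNB2 and PLXND1. With a smooth trend on GC content and length removed from every library, 17 members passed, 5 higher and 12 lower, against 14.0% of all genes. The part of DMSO replicate 1 in the calls of the 4 genes can be read from the fits without it, in which SEMA4D was at 1.77, SEMA3D at 0.50, UNC5B at 0.35 and NTN5 at -0.30.

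**Figure D5:**
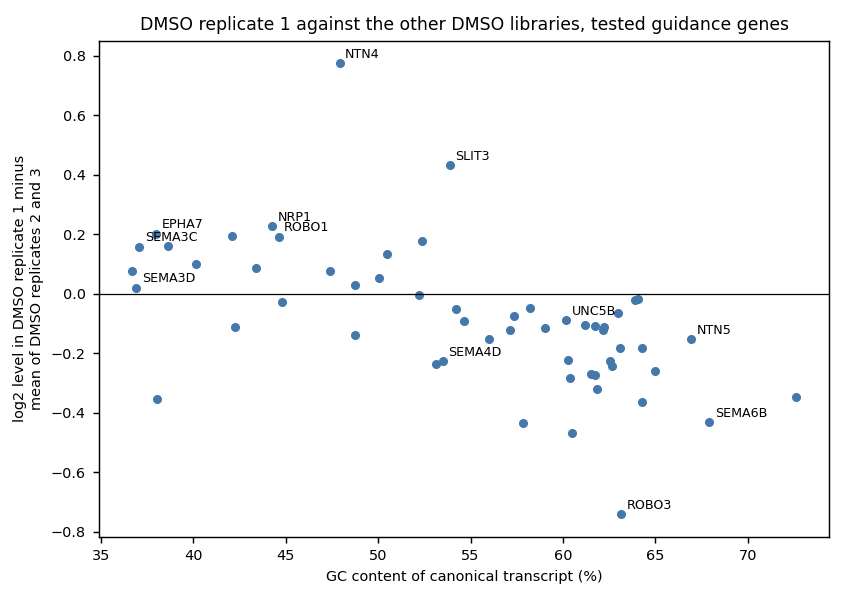
For each tested member, the log2 level in DMSO replicate 1 minus the mean of DMSO replicates 2 and 3, against the GC content of the canonical transcript in percent. Most members with at least 60% GC lie below 0, and ROBO3 at -0.74 and NTN4 at 0.78 are the extremes.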

How the data were processed

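RNA from Rh30 cells was sequenced as directional poly(A) libraries in 6 samples, grouped by their labels into 3 DMSO and 3 YK-4-279. The authors aligned reads to hg38 with STAR 2.7.9a and deposited normalized counts per gene, a signal in which read counts are divided by a size factor from DESeq2 1.44.0. Gene annotation and strand setting are not given in the sources used here. Each library's values were whole multiples of its smallest value above 0 within 0.001, and reads were counted from these steps. All 6 sample columns were used (0 left out). The 1 row without a gene name held at most 6 reads in any library and was left out.

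The members and lists were chosen with earlier results of these data known. Genes with a mean of at least 10 were tested with limma 3.58.1 (lmFit, eBayes with trend, two-sided) in R 4.3.3 on log2(normalized count + 1), with Benjamini-Hochberg adjustment and a threshold of 0.05. Members were named if called, if highest in mean count or most changed in their family, or if the groups did not overlap at a mean of at least 100. From the wider list the gene with the highest mean count and the called genes were named. SEMA3F, SEMA4C, PLXNA1, EPHA7, PLXNB1, NTN1, NEO1 and SLIT1 were named after their values were seen. So were the markers given with a fold change, and the members listed as untested or as called in an alternative fit. Coordinates, lengths and GC content came from GENCODE v44, with GC content for 98.4% of genes tested. The test was checked on simulated data. It recovered 27 of 198 genes given a log2 change of 0.25 and 149 of 200 given 0.5. Among those with a mean of 10 to 100 it recovered 0 of 40 and 3 of 41. A missing call therefore does not show that a gene was unchanged. Alternatives were another pseudocount, filter, scaling or variance trend, a replicate block, removal of GC and length trends, and leaving out each library.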

Additional observations from a re-analysis of the deposited data

How the results depend on the processing

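Leaving out 1 library gave from 0 (without YK replicate 1 or 2) to 14 called members (without DMSO replicate 1), from 0 to 12 called genes of the wider list and from 19 to 1823 over all genes. Family medians then ranged from 0.021 to 0.14 for class 3 semaphorins, 0.047 to 0.22 for the other semaphorins, -0.046 to 0.088 for plexins, -0.27 to 0.058 for A-class ephrins and -0.094 to -0.011 for ROBO genes. The log2 fold change ranged from -0.11 to 0.12 for SEMA6B, -0.057 to 0.064 for EPHB4 and -0.094 to 0.0080 for ROBO1, each crossing 0 only without DMSO replicate 1. With GC and length trends removed 17 members, 13 wider genes and 1950 genes passed, medians were 0.14 for class 3 semaphorins, 6.3e-05 for B-class ephrins, -0.030 for EPHB and 0.29 for UNC5B, and SEMA6B (-0.043) and EPHB4 (-0.061) changed sign. Quantile normalization gave 277 calls, 1 in the wider list, medians of -0.0062 for class 3 semaphorins, -0.058 for SLIT and 0.017 for ROBO, and the opposite sign for ROBO1 (0.017). Without a filter on the mean, medians were 0.11 for class 3 semaphorins, 0.49 for SLIT, -0.20 for ROBO and 0.012 for UNC5, because low genes entered. With a mean of at least 100 they were 0.11 for class 3 semaphorins and -0.022 for A-class ephrins, with 1 wider call. eBayes without trend left 1 member, 0 wider genes (limma, 8 at an unadjusted p under 0.05) and 33 genes. The causes of the other changes were not tested. A pseudocount of 10 and TMM scaling kept every count of calls within 1.5 times. Replicate numbers did not pair the libraries, since deviations of same-numbered libraries correlated at -0.098, -0.027 and -0.027. With the replicate block UNC5B (adjusted p = 0.0724), NTN5 (0.0983), DCC (0.0797) and DOCK1 (0.0996) lost their calls, and 2 members (SEMA3D and SEMA4D), 0 wider genes (limma, 7 at an unadjusted p under 0.05) and 180 genes were called. The edgeR and DESeq2 alternatives on recovered reads were not run. SEMA4D and SLIT1 rest on few reads, and counting error limits their fold changes.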
